A study of Mus musculus with 24 samples.

Results

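The genes described are the heat shock proteins and the DnaJ (J domain) proteins, the molecular chaperones of the mouse cell, in bone marrow-derived macrophages (BMDMs). They were selected on name and on measured level, as rows of a normalised expression table whose gene name begins with Dnaja, Dnajb or Dnajc and a digit, or with Hsp and a family letter, or is Hspbp1 or Hsph1, and whose log2 value was at least 4 in at least 3 of the 24 libraries. Of 24273 genes in the table, 71 matched the names and 56 passed the threshold. All 56 were at or above 4 in all 24 libraries, so none was kept through a single group. Just inside the threshold were Hspd1-ps3, with a lowest value of 4.03, and Dnajc28, with a lowest value of 4.11. Just outside were Hspa12b, which reached 3.32, and Dnaja4, which reached 2.76. The 15 rows left out also held Hspb1, which did not exceed 0.64.

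BMDMs are obtained by culturing bone marrow, here from C57BL/6 mice, under conditions that favour macrophages. The control genotype was LysM-Cre. In the second genotype, FosKO, floxed Fos was to be deleted by Cre recombinase expressed from the lysozyme locus Lyz2 in myeloid cells. The study's text gives the controls a floxed Fos allele, which the series' design text does not mention. Cells of each genotype were left unstimulated (0 h) or received 100 ng/ml lipopolysaccharide (LPS, a ligand of TLR4) for 0.5, 1 or 2 h, with 3 libraries in each of the 8 groups. The study's methods call the libraries of a group biological replicates, but the sources used here do not say whether they came from separate mice or cultures, so that p-values measure only the spread between these libraries.

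Fos mRNA did not check the genotype labels. Its mean log2 value was 11.11 ± 0.05 (SD, n = 3) in LysM-Cre and 12.60 ± 0.17 in FosKO at 0 h, and 13.52 ± 0.08 and 12.75 ± 0.09 at 0.5 h. For the 1 h groups the means were 11.15 ± 0.17 and 12.78 ± 0.10, and for the 2 h groups 9.52 ± 0.10 and 12.80 ± 0.13, so that Fos was higher in the libraries labelled FosKO at 3 of the 4 times, by up to 3.29. In LysM-Cre the Fos mean rose at 0.5 h and then fell, while the FosKO means stayed between 12.60 and 12.80. One value per gene cannot tell the deleted exons from the rest, and every direction between genotypes below rests on the labels. For FosKO cells after LPS the study reports higher Ifnb1 mRNA and lower Fra1 and Fra2 mRNA. These genes were not examined here. Lyz2 lay between 10.87 and 11.57 in the LysM-Cre libraries and between 16.08 and 16.33 in those labelled FosKO. Since Lyz2 split with the genotype labels, its part in the genotype differences cannot be told apart from that of Fos and was not tested. The macrophage markers Adgre1, Csf1r and Cd68 were at 14.61 or above in every library. Mertk and Fcgr1 were detected in all libraries and were higher in FosKO at all 4 times, Mertk by 0.97, 1.00, 0.89 and 1.65 and Fcgr1 by 0.65, 0.85, 0.63 and 0.73, and the more abundant of the rows named Itgam was lower by 0.19, 0.25 and 0.18 up to 1 h. By contrast, Cd3e, Ly6g and Cpa3, which mark other blood cells, did not exceed -0.94. Other markers on the same lists were detected: Cd4 at 7.57 to 8.44, S100a8 at 4.09 to 5.41, S100a9 at 3.85 to 5.82, Zbtb46 at 3.40 to 6.03, and Col1a1 and Col1a2 at up to 3.75 and 3.80. At all 4 times Cd4 was higher and S100a9 lower in FosKO, with differences of 0.42 and -0.81 at 0 h. Every FosKO library lay below every LysM-Cre library of the same time for S100a8, and above for Cd68. Adgre1 was lower in FosKO without overlap at 0 and 1 h, and Csf1r at 0 h. Zbtb46 was called between genotypes at 2 h alone, at 5.95 ± 0.11 in LysM-Cre and 4.99 ± 0.13 in FosKO, while Col1a1 and Col1a2 were called at no time. The part of these markers in the results was not tested. In such bulk samples fewer cells of a type and less RNA per cell cannot be told apart. In 5 libraries of the 0.5 and 1 h groups the 18S ribosomal RNA row stood at 16.65 to 17.00, against 18.57 to 19.39 in the others. A term for this split was called for 1 member, Hspa8, which was higher in the 5 libraries by 0.18 (SE 0.05, adjusted p = 0.0314), and for 3.43% of all genes tested.

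Heat shock protein 70 (HSP70) chaperones bind exposed hydrophobic stretches of unfolded proteins in a cycle driven by ATP. J proteins bring clients to HSP70 and stimulate its ATPase, and nucleotide exchange factors such as the HSP110 proteins release the client. The transcription factor HSF1 induces the cytosolic members under proteotoxic stress through heat shock elements, which are inverted repeats of GAA, while the unfolded protein response induces the endoplasmic reticulum (ER) members through ER stress elements. In macrophages these chaperones serve the folding of newly made and secreted proteins.

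Per kilobase of exon, the most abundant member in unstimulated LysM-Cre cells was the constitutive cytosolic HSP70 Hspa8, at a log2 level of 12.84 ± 0.02 (SD, n = 3). It was followed by the ER HSP70 Hspa5 (BiP) at 12.38 ± 0.01, the mitochondrial chaperonin Hspd1 at 10.46 ± 0.02 and the mitochondrial HSP70 Hspa9 at 10.29 ± 0.03. Neighbours in this order differed by more than their spread. The inducible HSP70 genes Hspa1a and Hspa1b stood at 5.97 ± 0.05 and 6.08 ± 0.14 on the same scale and did not differ beyond their spread. The lowest level was that of Hspd1-ps3, a processed pseudogene, at 3.50 ± 0.11.

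Hspa1a and Hspa1b are intronless neighbours on the reverse strand of chromosome 17, at chr17:34969190-34972156 and chr17:34956436-34959238 (GRCm38). They encode the stress-inducible cytosolic HSP70, and the promoters are shown because these were the members that rose most with LPS. The 250 bases before each start follow, from RefSeq's GRCm38.p6, at chr17:34972157-34972406 for Hspa1a and chr17:34959239-34959488 for Hspa1b, both 5′ to 3′ on the reverse strand. Capitals mark a match to the heat shock element GAANNTTC.
Hspa1a: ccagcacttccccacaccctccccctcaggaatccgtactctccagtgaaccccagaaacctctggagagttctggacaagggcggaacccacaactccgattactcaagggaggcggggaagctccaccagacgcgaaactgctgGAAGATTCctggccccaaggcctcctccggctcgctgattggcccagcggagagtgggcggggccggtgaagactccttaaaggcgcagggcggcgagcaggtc
Hspa1b: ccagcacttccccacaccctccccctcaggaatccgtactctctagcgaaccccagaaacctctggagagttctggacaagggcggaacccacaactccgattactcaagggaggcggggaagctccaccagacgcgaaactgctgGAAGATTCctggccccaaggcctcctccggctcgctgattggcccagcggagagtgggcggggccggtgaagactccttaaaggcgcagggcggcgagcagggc

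The 2 windows differed at 3 of 250 bases, all outside the element, which lay at bases -104 to -97 from the start. GAANNTTC, searched on both strands, was present in 7.86% of all 32851 promoter windows of 300 bases in the table and in 18.6% of the 59 member windows. The matches fell in 9 of the 45 member genes that had a window. These were Dnaja1, Dnajb6, Dnajc27, Hspa1a, Hspa1b, Hspb6, Hspd1, Hspe1 and Hsph1. The longer form, GAANNTTC followed by any pair of bases and GAA, which contains the shorter, was present in 0.603% of all windows. It was present in 10.2% of the member windows, in Dnajb6, Hspd1, Hspe1 and Hsph1. The AP-1 motif TGANTCA, the element that FOS and JUN dimers bind, was present in 7.81% of all windows and 1.69% of the member windows, in 1 member gene, Hspa5. A match describes the letters only, not binding.

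The Hspa1 pair gave the largest LPS responses among the members. Hspa1a stood at 7.48, 7.54 and 7.58 in the 3 unstimulated LysM-Cre libraries, at 9.25, 9.32 and 9.46 after 0.5 h, at 9.83, 10.03 and 10.01 after 1 h and at 9.99, 10.04 and 10.11 after 2 h. In the libraries labelled FosKO it stood at 7.64, 7.69 and 7.89 before LPS, then at 8.94, 9.07 and 9.13, at 9.78, 9.81 and 9.78, and at 9.72, 9.80 and 9.88 in time order. Every stimulated library was above every unstimulated one, and from 0.5 h the FosKO libraries lay below all LysM-Cre libraries of the same time, although at 0 h they lay above them. The LPS rise of Hspa1a in LysM-Cre was 1.81, 2.42 and 2.51 in time order on the log2 scale (SE 0.07 each), the last a 5.71-fold rise. In FosKO it was 1.31, 2.05 and 2.06 (SE 0.07 each), which is 4.17-fold at 2 h. These 6 changes passed the test (limma, adjusted p of 1.21e-11 or less).

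Hspa1b stood at 7.72, 7.48 and 7.49 in unstimulated LysM-Cre libraries, then at 8.89, 8.96 and 9.03, at 10.33, 10.29 and 10.30, and at 11.01, 11.00 and 11.05 after 0.5, 1 and 2 h. In FosKO it stood at 7.42, 7.77 and 7.67, then at 8.42, 8.44 and 8.79, at 9.78, 9.84 and 9.89, and at 10.34, 10.39 and 10.51. The groups overlapped at 0 h and were separate at each LPS time, with FosKO lower. Its rise in LysM-Cre was 1.40, 2.74 and 3.46 (SE 0.09 each), 11.0-fold at 2 h, and in FosKO 0.93, 2.21 and 2.79 (SE 0.09 each), 6.94-fold at 2 h. Unlike Hspa1a, whose libraries at 1 and 2 h overlapped in both genotypes, Hspa1b was higher in every 2 h library than in every 1 h library.

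Between genotypes, Hspa1b was lower in FosKO by 0.41 at 0.5 h (adjusted p = 0.000842), by 0.47 at 1 h (adjusted p = 0.000291) and by 0.60 at 2 h (adjusted p = 1.17e-05; SE 0.09 each), while at 0 h the difference was 0.06 (95% interval -0.13 to 0.24). Hspa1a was higher in FosKO at 0 h by 0.20 (adjusted p = 0.0267) and lower by 0.30 at 0.5 h (adjusted p = 0.00156) and by 0.25 at 2 h (adjusted p = 0.00541; SE 0.07 each). At 1 h Hspa1a differed by -0.17 and did not pass (adjusted p = 0.0695). The 0 h call of Hspa1a was lost without FosKO replicate 3, where the difference was 0.13, without LysM-Cre replicate 1 (0.18) and without LysM-Cre replicate 2 (0.21). The 0.5 h difference of Hspa1a was -0.19 among the libraries with high 18S (2 of each genotype), where it was not called, and that of Hspa1b was -0.31. Of those with low 18S there was 1 library of each genotype at 0.5 h, which differed by -0.52 and -0.61, a pair of values with no test.

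The copies share much of their sequence. Of all 50-base words in the transcripts of Hspa1a, 58.8% also occur in Hspa1b, and of those of Hspa1b 62.3% occur in Hspa1a, so how the authors' counting divided reads between them is uncertain. Summed on the linear scale, the pair stood at log2 values of 8.61, 8.51 and 8.53 in LysM-Cre at 0 h and of 11.59, 11.60 and 11.66 at 2 h. In FosKO the sum stood at 8.53, 8.73 and 8.79 at 0 h and at 11.06, 11.13 and 11.23 at 2 h. The mean sum in FosKO differed from that in LysM-Cre by 0.13 before LPS and by -0.34, -0.33 and -0.48 after 0.5, 1 and 2 h. The share of Hspa1b in the sum in LysM-Cre was 50.5% ± 3.17 (SD, n = 3) before LPS, then 43.4% ± 0.617, 56.0% ± 2.20 and 66.2% ± 0.613 in time order, and 60.5% ± 0.321 after 2 h in FosKO. The lower level in FosKO after LPS therefore also held for the pair as a sum.

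**Figure D1:**
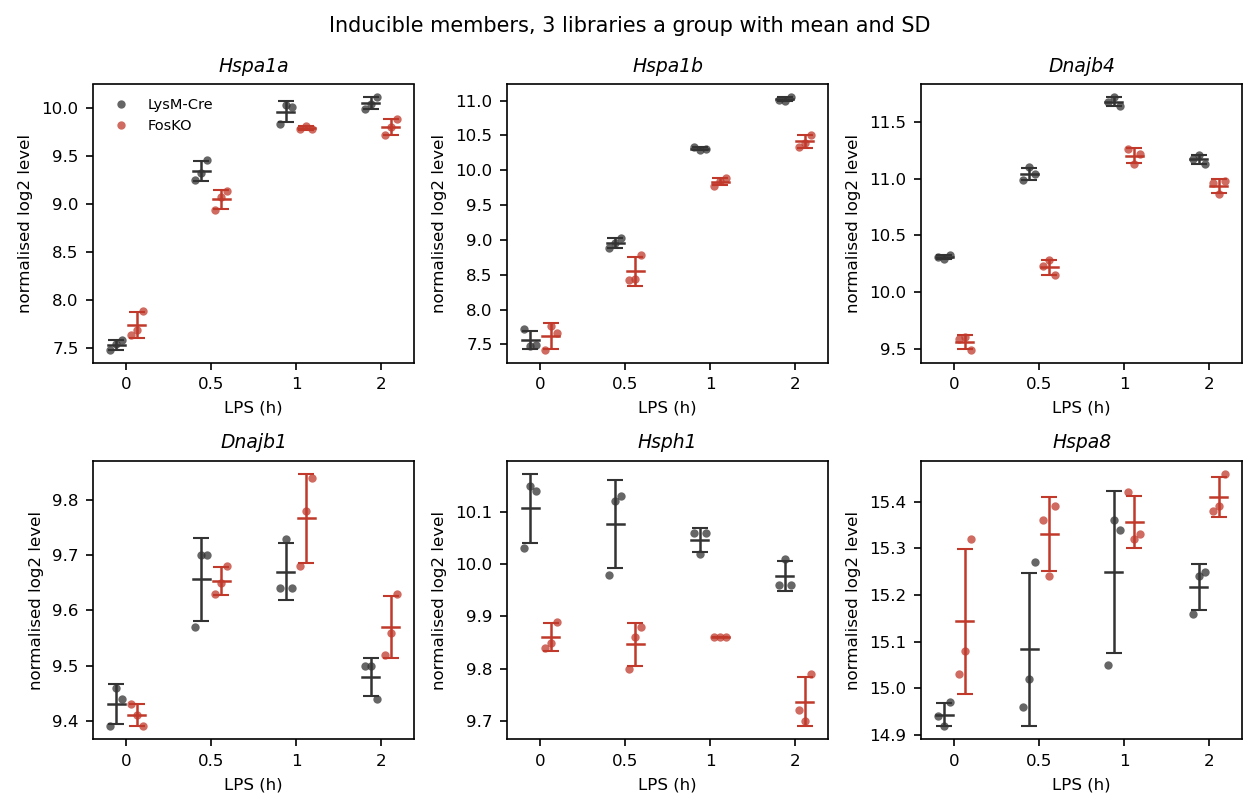
Normalised log2 level (vertical axis, scaled per panel and not starting at 0) of 6 members against hours of LPS (horizontal axis, categories), with each of the 3 libraries a group as a point and bars for mean and SD. Hspa1a and Hspa1b climbed in both genotypes and were lower in FosKO (red) than in LysM-Cre (black) after LPS, Dnajb4 was lower in FosKO at every time, and Hspa8 overlapped between genotypes at 0.5 and 1 h.

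The test of the difference in LPS response itself was called for the pair as follows. At 2 h the response was smaller in FosKO by 0.66 for Hspa1b (SE 0.13, adjusted p = 0.000966) and by 0.45 for Hspa1a (SE 0.10, adjusted p = 0.00287), and both calls held with any 1 library left out. At 1 h the difference was -0.53 for Hspa1b (SE 0.13, adjusted p = 0.041) and -0.37 for Hspa1a (adjusted p = 0.0809). At 0.5 h it was -0.50 for Hspa1a (SE 0.10, adjusted p = 0.0467) and -0.47 for Hspa1b (adjusted p = 0.412). The 0.5 h call of Hspa1a held in 3 of 12 fits that left out 1 library and the 1 h call of Hspa1b in 2 of 12, with values of -0.55 to -0.43 and -0.63 to -0.45.

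The other members that HSF1 is known to induce changed far less than the Hspa1 pair or did not pass the test. The list of heat-inducible members holds 9 that were kept: Hspa1a, Hspa1b, Hspa8, Hsph1, Hspa4l, Dnajb1, Dnaja1, Hspd1 and Hspe1. At 1 h of LPS 5 of the 9 rose and none fell in each genotype. Of all genes, 19.2% were called higher in LysM-Cre and 17.6% in FosKO. The median change of the 9 was 0.24 in LysM-Cre and 0.21 in FosKO, and the median of all genes tested was 0.00 in both. Apart from the pair, no member of the list changed by more than 0.35 at 1 h. At 2 h 7 rose in LysM-Cre and 6 in FosKO, Hsph1 fell in both (60.8% and 62.1% of all genes called), and Dnaja1 had risen by 0.75 and 0.85. With quantile normalisation the 2 h values of Hspa8, Hspd1 and Hspe1 turned negative in both genotypes.

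Dnajb1 (HSP40), the main J protein partner of HSP70 in disaggregation, showed a small rise that had receded by 2 h. Its LysM-Cre libraries stood at 9.39, 9.46 and 9.44 before LPS, then at 9.57, 9.70 and 9.70, at 9.64, 9.73 and 9.64, and at 9.50, 9.50 and 9.44 in time order. The 0.5 and 1 h libraries lay above all 0 h libraries and the 2 h libraries overlapped them. The rise was 0.22 (adjusted p = 0.00132) and 0.24 (adjusted p = 0.000147) at 0.5 and 1 h, and the 2 h difference was 0.05 (95% interval -0.04 to 0.14). In FosKO the 3 differences were 0.24, 0.35 and 0.16 (SE 0.04 each) and all passed. Between genotypes Dnajb1 was not called at any time, with differences of -0.02 at 0 h (95% interval -0.11 to 0.07) to 0.10 at 1 h (0.01 to 0.19).

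Hsph1 (HSP110), a nucleotide exchange factor for HSP70, was lower in FosKO at all 4 times. It stood at 10.03, 10.15 and 10.14 in LysM-Cre and 9.84, 9.85 and 9.89 in FosKO at 0 h, and at 9.96, 10.01 and 9.96 against 9.72, 9.70 and 9.79 at 2 h. The groups did not overlap at any of the 4 times. The differences were -0.25, -0.23, -0.19 and -0.24 from 0 to 2 h (SE 0.04 each, adjusted p of 0.000754 or less). After 2 h of LPS it had fallen, by -0.13 in LysM-Cre and -0.12 in FosKO.

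Hspa4l, another HSP110 family member, was at 9.89, 9.93 and 9.95 in LysM-Cre and 10.31, 10.53 and 10.45 in FosKO at 2 h, so that all FosKO libraries were higher. The difference was 0.51 (SE 0.05, adjusted p = 1.92e-07), against 0.12 at 0 h, which did not pass. At 1 h Hspa4l was also called higher in FosKO, by 0.16, but not under every alternative and with each library left out. Its LPS response at 2 h was larger in FosKO by 0.39 (SE 0.08, adjusted p = 0.00141). Hspa4 and Hspbp1, the remaining exchange factors, were not called between genotypes at any time.

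The constitutive Hspa8 stood at 14.94, 14.92 and 14.97 in LysM-Cre and 15.03, 15.08 and 15.32 in FosKO at 0 h, and at 14.96, 15.02 and 15.27 against 15.36, 15.24 and 15.39 at 0.5 h. The LysM-Cre library at 15.27 was 1 of the 5 with low 18S. The 0.5 h difference of 0.25 was called (SE 0.08, adjusted p = 0.0199), and it was 0.33 within the high 18S libraries and 0.09 between the single low ones of each genotype. This call was lost in 4 of the 6 fits that left out 1 library, which were those without LysM-Cre replicates 1 and 2 (differences of 0.19 and 0.22) and without FosKO replicates 1 and 3 (0.23 and 0.22). Part of the Hspa8 sequence (38.6% of 50-base words) also occurs in other genes, most of it in Gm15459. Among the other HSP70 members, Hspa2 was called higher in FosKO at 2 h alone. It stood at 7.06, 7.09 and 7.07 against 6.68, 6.74 and 6.85 in LysM-Cre, and the call held under every alternative and with each library left out. Hspa1l was not called between genotypes at any time.

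The ER members were led by Hspa5, which was higher in FosKO at all 4 times. It stood at 14.47, 14.45 and 14.46 in LysM-Cre and 14.71, 14.82 and 14.85 in FosKO at 0 h. At 2 h it stood at 14.98, 15.00 and 15.04 in LysM-Cre and 15.28 in each FosKO library. The groups did not overlap at any time, and the differences were 0.34, 0.40, 0.30 and 0.28 from 0 to 2 h (SE 0.03 each, adjusted p of 1.35e-06 or less), a 1.26-fold difference at 0 h. Within the high 18S libraries Hspa5 differed by 0.42 at 0.5 h (2 against 2) and by 0.35 at 1 h (2 FosKO libraries against 1). Within the low ones it differed by 0.35 (1 against 1) and 0.27 (1 FosKO library against 2), so that all but the first rest on a single library of a genotype. With quantile normalisation the 4 differences were 0.24, 0.28, 0.14 and 0.08, and the last was not called.

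Hspa5 is the member in which both an ER stress element (CCAAT, any 9 bases, CCACG) and the AP-1 motif lay before the RefSeq start. GENCODE begins the gene at chr2:34771970-34777547, further upstream, so that the ER stress element lies within its annotated span. The element was present in 0.119% of all promoter windows and 3.39% of the member windows, in 2 member genes, Dnajc3 and Hspa5. Both stretches of 30 bases are given on the forward strand of GRCm38.p6, with the match in capitals, at chr2:34772020-34772049 for the ER stress element and at chr2:34771897-34771926 for the AP-1 motif.
Hspa5, ER stress element: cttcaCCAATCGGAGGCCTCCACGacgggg
Hspa5, AP-1 motif: ccagtagccaaTGAGTCAgcccggggggcg

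Of the 9 ER members, 3 were higher in FosKO at each of the 4 times, and 1, 2, 3 and 2 were lower from 0 to 2 h. The shares of all genes called were 35.4%, 40.9%, 33.9% and 44.6%. Besides Hspa5, the higher ones were Dnajb9 (ERdj4) and Dnajb11 (ERdj3), J proteins of the ER lumen that act with Hspa5. Dnajb9 stood at 9.76, 9.77 and 9.79 in LysM-Cre and 9.87, 9.89 and 9.99 in FosKO at 0 h, and at 9.83, 9.90 and 9.89 against 10.18, 10.14 and 10.11 at 1 h. All FosKO libraries were above all LysM-Cre libraries at both times. Its differences were 0.15, 0.16, 0.27 and 0.24 from 0 to 2 h (adjusted p of 0.00187 or less). Those of Dnajb11 were 0.19, 0.23, 0.12 and 0.15 (adjusted p of 0.00238 or less), but 0.05 and 0.01 at 1 and 2 h with quantile normalisation, where neither was called. Dnajb14, a J protein of the ER membrane, went the other way, by -0.15, -0.24, -0.16 and -0.16 (adjusted p of 0.0106 or less), the first called in 4 of 6 fits with 1 library left out. Dnajc1 was also called lower in FosKO, by -0.17 at 0.5 h and -0.16 at 1 h. Hspa13 was called lower at 1 h, by -0.13, and at 2 h, with means of 10.11 in FosKO and 10.22 in LysM-Cre. Of these calls of Dnajc1 and Hspa13, only the 0.5 h call held under every alternative and with each library left out. Dnajc3 (p58IPK), which also carries the ER stress element, differed by 0.00 at 0 h and was not called in any of the 13 comparisons. Neither Dnajc10 nor Dnajb12 was called between genotypes.

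With LPS, Hspa5 rose in LysM-Cre by 0.16, 0.39 and 0.55 at 0.5, 1 and 2 h and in FosKO by 0.23, 0.35 and 0.49 (SE 0.03 each), and its response was not called different at any time (differences of 0.06, -0.04 and -0.06). These rises depended on the scaling. With quantile normalisation the 2 h values became 0.06 in LysM-Cre and -0.11 in FosKO. The same change of scaling turned the small LPS rises of other abundant members: at 2 h Hspa8 was 0.27 in both genotypes as deposited but -0.06 in LysM-Cre and -0.18 in FosKO with quantile normalisation, and Hspa9 went from 0.28 and 0.16 to -0.01 and -0.18. The rises of the Hspa1 pair and of Dnajb4 kept their direction and their call under all 11 alternatives and with each library left out.

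**Figure D2:**
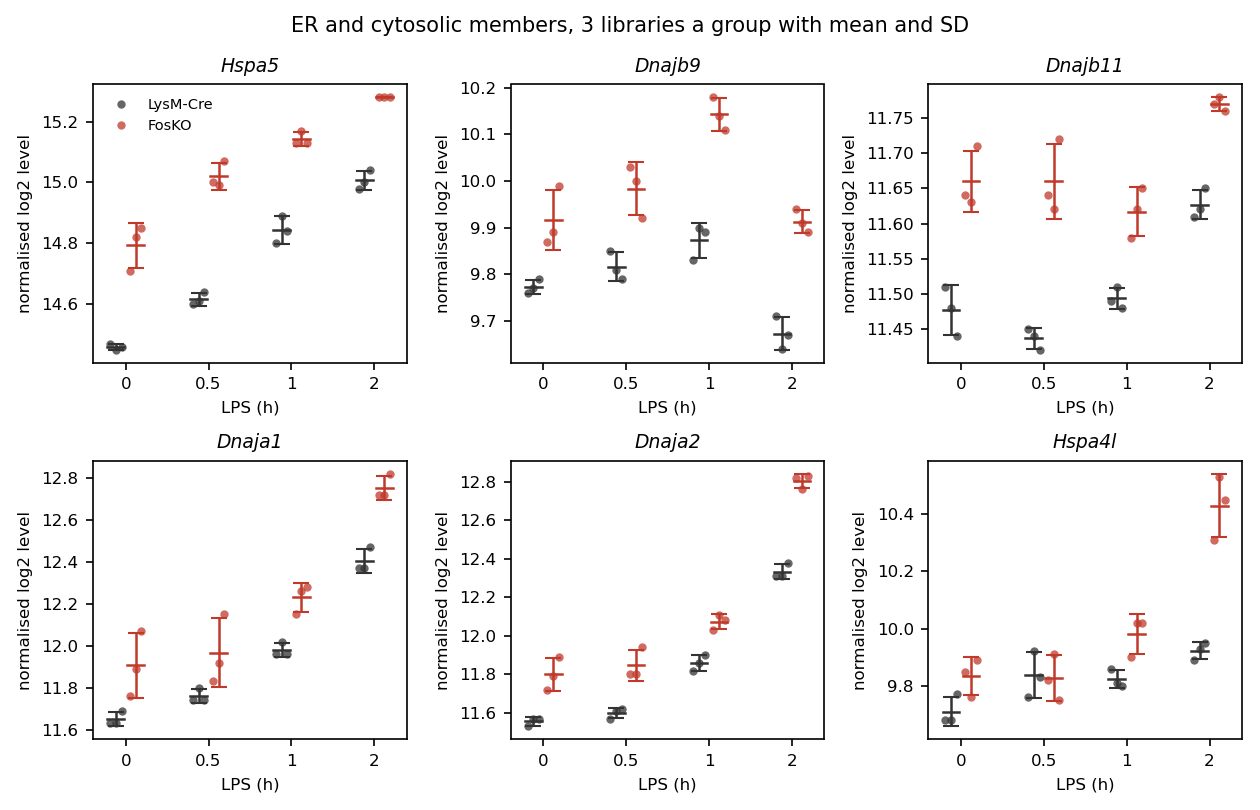
Normalised log2 level (vertical axis, scaled per panel and not starting at 0) against hours of LPS (horizontal axis, categories) for 3 ER members (Hspa5, Dnajb9, Dnajb11) and 3 cytosolic members (Dnaja1, Dnaja2, Hspa4l), with each library as a point and bars for mean and SD (n = 3). FosKO (red) lay above LysM-Cre (black) at all 4 times in the first 5 panels, and Hspa4l separated most at 2 h, at 10.31 to 10.53 against 9.89 to 9.95.

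Among the J proteins, Dnajb4, a class B cytosolic J protein, had the widest difference between genotypes of all 56 members at 0 and 0.5 h. At 1 h Dnajb4 was too close to Hspa1b to rank (-0.48 against -0.47). It stood at 10.31, 10.29 and 10.33 in LysM-Cre and 9.59, 9.60 and 9.49 in FosKO at 0 h, and at 10.99, 11.10 and 11.04 against 10.23, 10.28 and 10.15 at 0.5 h. At 1 h it stood at 11.68, 11.72 and 11.64 against 11.26, 11.13 and 11.22, and at 2 h at 11.17, 11.21 and 11.13 against 10.96, 10.87 and 10.98. The groups were separate at every time and the gap narrowed after 0.5 h. The differences were -0.75, -0.82, -0.48 and -0.24 (SE 0.04 each, adjusted p of 7.89e-05 or less), which is 1.68-fold lower in FosKO at 0 h.

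LPS raised Dnajb4 by 0.73, 1.37 and 0.86 in LysM-Cre and by 0.66, 1.64 and 1.38 in FosKO at 0.5, 1 and 2 h, 2.59-fold and 3.13-fold at 1 h. In contrast to the Hspa1 pair, the response was larger in FosKO, by 0.27 at 1 h (SE 0.06, adjusted p = 0.0168) and by 0.51 at 2 h (SE 0.06, adjusted p = 3.87e-06). The 1 h call was lost in 4 of 12 fits with 1 library left out, which were those without the third 0 h library of either genotype, the third LysM-Cre library of 1 h or the first FosKO library of 1 h, with values of 0.24 to 0.26. The 2 h call held in all 12.

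All 3 class A J proteins, general partners of cytosolic and mitochondrial HSP70, were higher in FosKO at 0 h, when 19.5% of all genes were called higher. Dnaja2 stood at 11.53, 11.57 and 11.57 in LysM-Cre and 11.72, 11.79 and 11.89 in FosKO at 0 h, and at 12.31, 12.31 and 12.38 against 12.82, 12.76 and 12.83 at 2 h, with no overlap. Its differences were 0.24, 0.25, 0.21 and 0.47 from 0 to 2 h (SE 0.04 each, adjusted p of 0.000412 or less). Its 2 h LPS rise was 0.78 in LysM-Cre and 1.00 in FosKO, and the response differed by 0.23 (SE 0.06, adjusted p = 0.0109). Dnaja1 was higher in FosKO by 0.26, 0.21, 0.25 and 0.35 (SE 0.07 each) and rose by 0.75 and 0.85 at 2 h of LPS. Its 0.5 h difference was called in 3 of 6 fits with 1 library left out, with values of 0.12 to 0.27. Dnaja3 (Tid1), the mitochondrial one, was higher in FosKO by 0.15 at 0 h and 0.16 at 0.5 h and was not called later.

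Of the 10 class B members, LPS raised 7 at 1 h in each genotype and lowered none, while 19.2% of all genes were called higher in LysM-Cre and 17.6% in FosKO. Dnajb5 rose by 0.23, 0.88 and 0.54 in LysM-Cre and by 0.22, 0.67 and 0.51 in FosKO, highest at 1 h as Dnajb4 was. The 0.5 h rise of Dnajb5 was not called in LysM-Cre with the high 18S libraries, nor in FosKO with the groups compared alone. Dnajb2, a J protein best known from neurons, rose later, by 0.67 at 1 h and 0.93 at 2 h in LysM-Cre and by 0.63 and 0.76 in FosKO, and was lower in FosKO by 0.27 at 2 h (SE 0.05, adjusted p = 0.000199). Dnajb6 was higher in FosKO at all 4 times, by 0.18, 0.25, 0.11 and 0.25, although the 1 h call held in 3 of 6 fits with 1 library left out. Dnajb13 was lower in FosKO at 0 h by 0.36 (SE 0.12, adjusted p = 0.0285) and was at a low level throughout, at 4.90 to 5.81, and this call held in 3 of 6 such fits.

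The 24 class C members have a J domain and otherwise varied structures. At 0.5 h none of them was called higher in either genotype, against 5.09% of all genes in LysM-Cre and 4.45% in FosKO, while Dnajc28 fell in both and Dnajc1 in FosKO. Dnajc28 stood at 6.49, 6.34 and 6.41 in LysM-Cre at 0 h and at 5.76, 5.64 and 5.70, then 5.16, 4.74 and 4.97, then 4.51, 4.45 and 4.54 after LPS. Each group lay below the one before it. The fall was 0.71, 1.46 and 1.91 on the log2 scale at 0.5, 1 and 2 h (SE 0.10 each), 3.76-fold at 2 h. In FosKO Dnajc28 fell by 0.65, 1.24 and 1.96, 3.90-fold at 2 h, and it was not called between genotypes at any time. Another gene, Gm15964, overlaps Dnajc28 on the opposite strand. Dnajc18 was also called lower at 2 h, from a mean of 8.93 to 8.38 in LysM-Cre and from 8.75 to 8.11 in FosKO. Outside class C, Dnajb14 changed by -0.57 in LysM-Cre and -0.58 in FosKO at 2 h. Hspb6, a small heat shock protein at a low level, changed by -0.38 and -0.41 at 1 h, and neither call held under every alternative and with each library left out.

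Between genotypes 7 class C members were higher and 3 lower in FosKO at 0 h, 5 were higher and 6 lower at 0.5 h, and 4 were higher at each later time with 4 and then 5 lower, where 35.4%, 40.9%, 33.9% and 44.6% of all genes were called. Dnajc15, a J protein of the mitochondrial inner membrane, was higher in FosKO by 0.33, 0.37, 0.26 and 0.27 from 0 to 2 h (SE 0.05 each, adjusted p of 0.00014 or less) and was called at no LPS time in either genotype. Dnajc13, an endosomal J protein, was higher by 0.25, 0.17, 0.21 and 0.39, and Dnajc14 by 0.10, 0.11, 0.11 and 0.14. No genotype call of Dnajc14 held under every alternative and with each library left out, nor did the 1 h calls of Dnajc13 and Dnajc15. Dnajc12 was lower by 0.28 (0 h), 0.39 (0.5 h) and 0.23 (2 h). Dnajc9 was lower by 0.21, 0.31 and 0.25 at the first 3 times, Dnajc18 by 0.18, 0.20 and 0.27 at all times but 1 h, and Dnajc19 by 0.12, 0.16 and 0.19 at the 3 LPS times. With 1 library left out, the 0 h call of Dnajc14 held in 2 of 6 fits, the 2 h call of Dnajc12 in 4, the 0 h and 1 h calls of Dnajc9 in 1 and 4, and the 0 h and 0.5 h calls of Dnajc18 in 4 and 5. That of Dnajc19 at 0.5 h held in 2, and was also lost with centring, with the high 18S libraries and with the groups compared alone. Among the high 18S libraries the 1 h difference of Dnajc19 was -0.20, where LysM-Cre keeps 1 library.

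Of 9 mitochondrial members, 4 were higher and none was lower in FosKO at 0 h, and 2 were higher and 2 lower at 2 h (35.4% and 44.6% of all genes called). Hspa9 stood at 12.37, 12.41 and 12.43 in LysM-Cre and 12.62, 12.66 and 12.68 in FosKO at 0 h, with no overlap, and the differences were 0.25, 0.23, 0.19 and 0.14 from 0 to 2 h (SE 0.02 each). With quantile normalisation the 2 h value was -0.00. The chaperonin subunits Hspd1 and Hspe1, which share 1 promoter region head to head at chr1:55077835-55088243 and chr1:55088132-55091307, differed little. Hspe1 was higher in FosKO by 0.13 at 0 h and 0.16 at 0.5 h, and Hspd1 was not called, with a difference of 0.04 at 0 h.

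Of the 56 members, 25 were called between genotypes at 0 h (18 higher and 7 lower in FosKO), against 35.4% of the 13901 genes tested. Without LysM-Cre replicate 2 the 0 h count was 15, and the share of all genes in that fit is not given. At 0.5 h 28 were called (16 and 12; 40.9% of all genes), at 1 h 22 (12 and 10; 33.9%) and at 2 h 28 (16 and 12; 44.6%), so that the shares of members called were 44.6%, 50.0%, 39.3% and 50.0%. The split at 1 h became 7 higher and 13 lower with quantile normalisation, and that at 2 h 11 and 18, or 19 and 9 when each library was centred on its median. In all, 10 members were higher at all 4 times (Dnaja1, Dnaja2, Dnajb6, Dnajb9, Dnajb11, Dnajc13, Dnajc14, Dnajc15, Hspa5 and Hspa9), 3 were lower at all 4 (Dnajb4, Dnajb14 and Hsph1) and 17 were called at none, where the shares of all genes tested were 11.4%, 7.11% and 35.6%. Among the higher ones only Dnaja2 and Dnajb9 kept all 4 calls under every alternative and with each library left out. Among the lower ones Dnajb4 and Hsph1 did so. Dnajc16 and Hspa1a were called in both directions at different times. No genotype difference reached 1 on the log2 scale.

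LPS in LysM-Cre gave 8, 25 and 39 called members in time order, of which 7, 20 and 29 rose and 1, 5 and 10 fell. The background was 7.24%, 35.8% and 60.8% of all genes called, against 14.3%, 44.6% and 69.6% of the members. LPS in FosKO gave 10, 23 and 42 called members, of which 8, 16 and 29 rose and 2, 7 and 13 fell, with 5.92%, 32.6% and 62.1% of all genes called against 17.9%, 41.1% and 75% of the members. The 3 LPS times of a genotype share its 0 h libraries. With quantile normalisation the members' splits became 5 and 2, 16 and 13, and 21 and 17 in LysM-Cre, and 5 and 4, 16 and 15, and 17 and 19 in FosKO. Centring on library medians gave 21 and 5 at 1 h and 31 and 8 at 2 h in FosKO. At 2 h, 24 members were called higher in both genotypes, 8 lower in both and none in opposite directions. The share of all genes called in both genotypes is not given, and at 2 h 60.8% and 62.1% were called in each alone. These counts therefore do not tell whether the members differed from all genes in this.

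**Figure D3:**
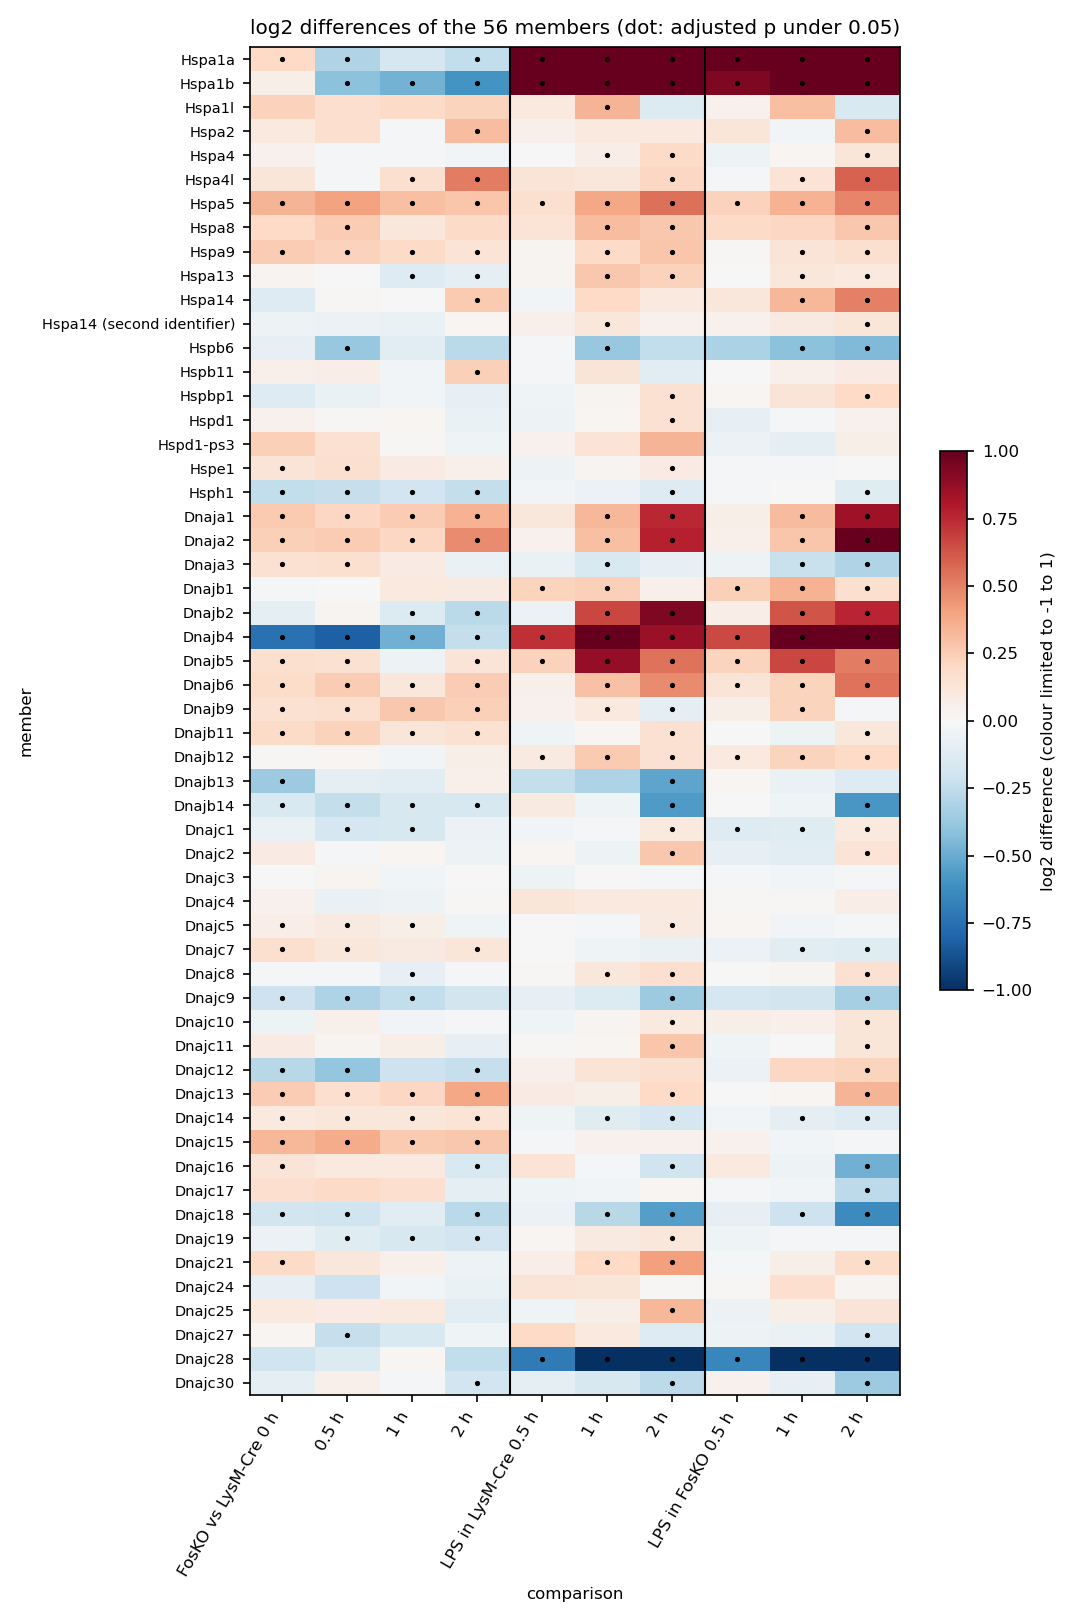
Log2 differences of the 56 members (rows) in the 4 genotype comparisons (left block, FosKO against LysM-Cre) and in the LPS comparisons of LysM-Cre (middle) and FosKO (right), with red for higher and blue for lower, colour limited to -1 to 1 and a dot where the adjusted p was under 0.05. Hspa1a, Hspa1b and Dnajb4 are the darkest red rows under LPS and Dnajc28 the darkest blue. Between genotypes Dnajb4 is the darkest blue at 0 and 0.5 h, with Hspa1b close to it at 1 h.

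The difference in LPS response was called for 1 member at 0.5 h (0.115% of all genes), for 2 at 1 h (1.22%) and for 12 at 2 h (4 with a positive and 8 with a negative difference, FosKO minus LysM-Cre; 15% of all genes). With quantile normalisation 1 was positive and 2 were negative at 1 h, and centring on library medians gave 4 and 5 at 2 h. Besides those given above, at 2 h Hspa14 (the row ENSMUSG00000051396) responded more in FosKO, by 0.40 (SE 0.11, adjusted p = 0.0168). This row overlaps a second Hspa14 row on the same strand, at chr2:3504527-3512790 and chr2:3488850-3512814, and GENCODE names the first Gm45902, so that its identity is uncertain. A negative difference was a smaller rise in some members and a larger fall in others. The 2 h rise of Dnajc21 was 0.41 in LysM-Cre and 0.18 in FosKO, that of Dnajc11 0.28 and 0.12, and that of Hspa9 0.28 and 0.16. Dnajc16 fell in both genotypes and fell more in FosKO (by 0.20 and 0.48). Dnaja3 changed by -0.08 in LysM-Cre, which was not called, and fell by 0.30 in FosKO, while Dnajc5 rose by 0.09 in LysM-Cre and stood at -0.02 in FosKO, not called. With quantile normalisation the 2 h rises of Dnajc11 in FosKO and of Dnajc5 in LysM-Cre were not called. With 1 library left out, the difference in response held in 8 of 12 fits for Dnajc21 and for Dnajc5 and in 5 for Dnajc11. Of the 11 alternatives, the call held in 9 for Dnajc21, in 7 for Dnajc5 and in 6 for Dnajc11.

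**Figure D4:**
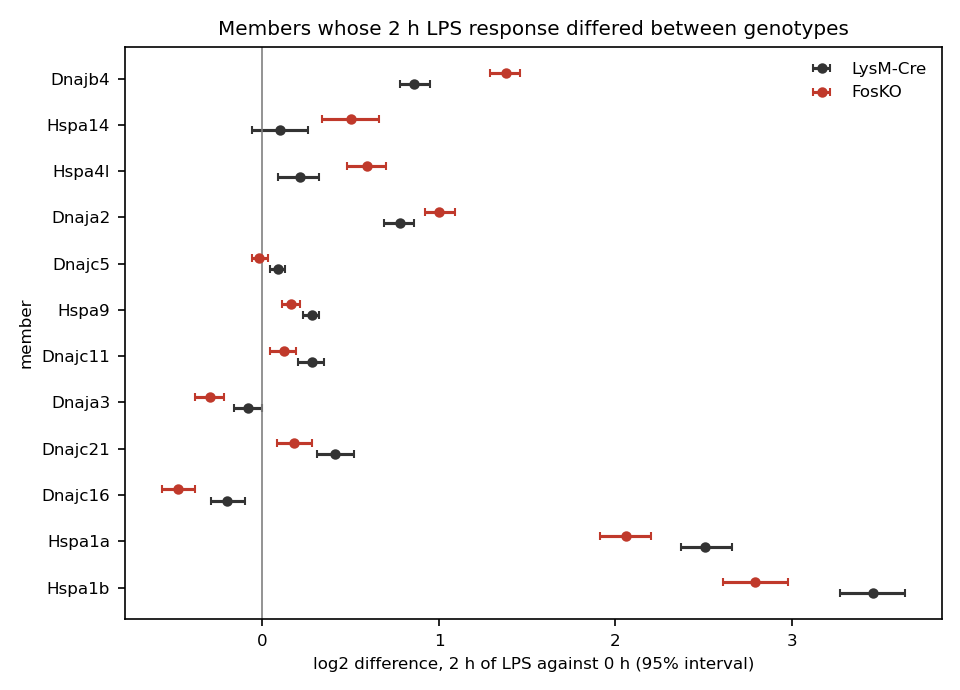
Log2 difference between 2 h of LPS and 0 h (horizontal axis, with 95% intervals) for the 12 members (vertical axis) whose response was called different between LysM-Cre (black) and FosKO (red). Hspa1b and Hspa1a responded most and less in FosKO (2.79 against 3.46 and 2.06 against 2.51), whereas Dnajb4 responded more in FosKO (1.38 against 0.86).

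Related genes that are no members are given from lists of HSP90 proteins, heat shock factors, cochaperones, the cytosolic chaperonin TRiC and the ER unfolded protein response. No alternative processing is given for these genes. The ER HSP90 Hsp90b1 (GRP94) was higher in FosKO by 0.17, 0.17, 0.11 and 0.17 from 0 to 2 h (SE 0.03 each). The inducible cytosolic Hsp90aa1 rose by 0.41 in LysM-Cre and 0.44 in FosKO at 2 h of LPS, and Hsp90ab1 by 0.25 and 0.21. Hsf1 rose by 0.29 and 0.22 at 2 h, and Hsf2 was lower in FosKO by 0.19, 0.17 and 0.18 at 0.5, 1 and 2 h.

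Of 17 genes of the unfolded protein response, 9, 11, 9 and 10 were higher and none, 1, none and 2 lower in FosKO from 0 to 2 h, against 19.5%, 21.2%, 18% and 24.4% of all genes called higher. The widest difference was that of Ddit3 (CHOP), at 0.99, 1.18, 1.05 and 0.88 (SE 0.07 each). Herpud1, an ER-associated degradation factor, was higher in FosKO by 0.34 at 0 h and lower by 0.24 at 2 h. All 8 TRiC genes rose at 2 h of LPS in both genotypes, with a median of 0.33 in LysM-Cre and 0.27 in FosKO. Of all genes, 30.6% and 32.6% were called higher. At 2 h 4 of the 8 were lower in FosKO, with 20.3% of all genes called lower between genotypes. Among 19 cochaperones, 5 were higher and 8 lower in FosKO at 2 h, when 44.6% of all genes were called. The mitochondrial exchange factor Grpel2 was lower in FosKO by 0.62 at 2 h (SE 0.05, adjusted p = 5.39e-09).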

How the data were processed

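RNA of 24 BMDM libraries had been sequenced with a stranded, single-read protocol. According to the submitters' processing notes, the authors used STAR 2.5.2a, RSEM 1.2.31 and DESeq2 1.16.1 with GRCm38. The authors deposited normalised log2 values, 1 per gene and library, which resemble a regularised log that shrinks genes with few reads. The values do not give the read depth of each library, for which the study's methods state only a typical yield, so no counting interval was computed. Because the values were already log2, limma was applied to them as deposited, and a pseudocount of 1 became an alternative. The members, lists and comparisons were chosen with earlier results of these data known. Genes were tested (13901) if 2 raised to their value reached 5 or more in 3 or more libraries. One limma fit (limma 3.58.1, R 4.3.3) with 8 group means, 16 residual degrees of freedom and a variance trend gave 13 comparisons: genotype at 4 times, LPS against 0 h in each genotype, and the difference in LPS response. P-values were two-sided and adjusted by Benjamini-Hochberg over all genes tested, and called means an adjusted p under 0.05. An exact permutation test of 3 against 3 libraries cannot go below 0.10 and was not used. The rule for naming took in Hspa5, Hspa8, Dnajb1, and the heat-inducible, ER, HSP70, HSP110 and chaperonin members. It also took in the 3 called members with the widest difference in each direction per comparison, and those called at all 4 times. Not every such member is given with values in each comparison. Dnajb5, Dnajc5, Dnajc11, Dnajc19 and Dnajc21 are outside this rule and were given after their values were seen. Alternatives were quantile normalisation, centring, no filter, a stricter filter, a pseudocount, a replicate block, the 18S split, no trend, only the groups compared, and each library left out. Motifs were searched by script (Python 3.11.15) on both strands of RefSeq windows reaching 250 bases before and 50 after each start, and coordinates and exon lengths came from GENCODE.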

Additional observations from a re-analysis of the deposited data

Results flagged for a closer look

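At 0.5 h the LPS response of Hspa1a differed between genotypes by -0.50 (FosKO minus LysM-Cre). At 1 h that of Hspa1b differed by -0.53 and that of Dnajb4 by 0.27. At 2 h the response differed by -0.66 for Hspa1b, -0.45 for Hspa1a, -0.28 for Dnajc16, -0.24 for Dnajc21, -0.22 for Dnaja3, -0.16 for Dnajc11, -0.11 for Hspa9, -0.10 for Dnajc5, 0.23 for Dnaja2, 0.39 for Hspa4l, 0.40 for Hspa14 and 0.51 for Dnajb4. Each of these is listed because the test of the difference in response itself was passed (limma, adjusted p under 0.05). Hspa1b, Hspa1a, Dnajc16, Dnaja3, Dnaja2, Hspa4l and Dnajb4 kept their 2 h call under all 11 alternatives and in all 12 fits with 1 library left out. Hspa14 kept it in 10 of those 12, and was lost without LysM-Cre replicate 3 at 0 h or LysM-Cre replicate 2 at 2 h (0.33 in both). Hspa9 kept it in 6 of 12, with values of -0.13 to -0.10, Dnajc21 and Dnajc5 in 8 each, and Dnajc11 in 5, with values of -0.20 to -0.12. Of the 11 alternatives, Dnajc21 kept the call in 9, Dnajc5 in 7 and Dnajc11 in 6.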

How the results depend on the processing

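Of 218 calls of named members, 129 kept direction and call under all alternatives and left-out libraries, and 20 changed sign, all with quantile normalisation, where the cause was not tested. A further 7 values, not called as deposited, were called with the opposite sign under it: those after 1 h of Dnajb11, Dnajc3 and Hspd1 in LysM-Cre and of Dnajc13 and Hspa4 in FosKO, and those after 2 h of Hspd1 and Hspe1 in FosKO. Of all 27, those in LysM-Cre after 1 h were Dnajb11 (-0.10), Dnajc3 (-0.12), Hspa4 (-0.11) and Hspd1 (-0.14), and after 2 h Dnajb11 (-0.08), Dnajc10 (-0.06), Dnajc13 (-0.05), Hspa4 (-0.11), Hspa8 (-0.06), Hspa9 (-0.01), Hspd1 (-0.10) and Hspe1 (-0.01). In FosKO after 1 h they were Dnajc13 (-0.14), Hspa4 (-0.15), Hspa5 (-0.02) and Hspa9 (-0.03), and after 2 h Dnajb11 (-0.19), Dnajc10 (-0.07), Dnajc13 (-0.01), Hspa13 (-0.01), Hspa4 (-0.23), Hspa5 (-0.11), Hspa8 (-0.18), Hspa9 (-0.18), Hspd1 (-0.28) and Hspe1 (-0.11). Between genotypes it was Hspa9 after 2 h (-0.00).

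With the high 18S libraries alone, members called were 11 between genotypes and 16 for LPS in LysM-Cre, both at 1 h, where LysM-Cre keeps 1 library, which is assumed to vary like the other groups. With the groups compared alone, LPS for 0.5 h in FosKO gave 5. The difference in response at 0.5 h, called for 1 member, was called for 0 with centring, no filter, high 18S libraries, no variance trend or the groups compared alone. At 1 h, against 2, it was called for 1 with no filter, no variance trend or the groups compared alone, and for 0 with the high 18S libraries. For members outside the naming rule, the 2 h difference in response was lost with the high 18S libraries or the groups compared alone (Dnajc21, Dnajc5 and Dnajc11), with centring or no variance trend (Dnajc5 and Dnajc11) and with no filter (Dnajc11). Leaving out 1 library gave 15 to 26 members between genotypes at 0 h (15 without LysM-Cre replicate 2), and 0 to 2 and 0 to 3 for the difference in response at 0.5 and 1 h.

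The replicate block gave 27, 29, 25 and 30 members called between genotypes, 8, 27 and 39 for LPS in LysM-Cre, 10, 25 and 42 in FosKO, and 1, 3 and 12 for the difference in response. Shares of all genes called are given for the main fit only. Counts of members under any other setting therefore do not tell whether the members or all genes changed. Deviations of libraries with the same number and genotype had a median correlation of 0.105 over 36 pairs of libraries, of which 19 exceeded 0.1 and the lowest was -0.34. For different numbers of 1 genotype the median was -0.04, with 4 of 72 over 0.1, for the same number in different genotypes -0.018, with 6 of 48, and for different numbers and genotypes 0.006, with 24 of 96. Deviations within a group of 3 sum to 0, which ties these values to each other. These correlations do not settle whether the numbers pair the libraries, and the main fit did not use the numbers. Libraries of 1 number and genotype deviated together more often, a hint from the data and not from the design. A replicate block within genotype gave 9, 25 and 39 members for LPS in LysM-Cre, 10, 27 and 42 in FosKO, and 1, 3 and 12 for the difference in response, and lost 1 named call, that of Hspb6 after 1 h in LysM-Cre. Without counts, what depth limits could not be computed.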
